A study of Mus musculus with 6 samples.

Results

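A set of 9 genes of the steroid hormone response was followed in uteri of female mice aged 2 weeks: the receptor genes Pgr, Esr1, Esr2, Nr3c1 and Nr3c2, the coactivator genes Ncoa1, Ncoa2 and Ncoa3, and the corepressor gene Nrip1. They were taken as every probe set whose platform annotation gives 1 symbol equal to 1 of these 9 names, which gave 27 probe sets of the 41420 on the array. The study compared 3 arrays of the genotype labelled Arid1a d/d with 3 of the genotype labelled Arid1a f/f, all from whole uteri of intact animals at this age. The product of Arid1a is a DNA-binding part of SWI/SNF, a complex that moves nucleosomes. In such names f denotes a floxed and d a deleted allele. The labels name neither the Cre line nor the deleted exons, and do not say whether each array came from a separate animal. In published mice written this way Cre is expressed from the Pgr locus, so that 1 Pgr allele carries the insertion. Whether these uteri carry it is not given in the sources used here, and its part in the Pgr values was not tested.

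Steroid receptors are transcription factors that are held by chaperones until a hormone binds, and then act on chromatin near their target genes. Coactivators of the p160 family, encoded by Ncoa1 to Ncoa3, are recruited by the bound receptor and bring in histone-modifying enzymes, while RIP140, the product of Nrip1, competes for the same receptor surface and mostly represses. In the uterus, estrogen through the Esr1 product drives growth and secretion of the epithelium and induces Pgr, and progesterone through the Pgr product restrains that growth.

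No receptor or coregulator transcript passed the test between the genotypes in the limma fit across all probe sets. Of the 27 probe sets, 0 had a Benjamini-Hochberg adjusted p under 0.05, where 0.524% of all probe sets did, so a count of 0 among so few is near that share and does not show that the levels were equal. The lowest adjusted p among the 27 was 0.430. At an unadjusted p under 0.05 there were 4 of 27 (14.8%), against 9.85% of all probe sets. The groups did not overlap for 4 of the 27, again 14.8%, and for 14.1% of all probe sets. The log2 differences, d/d minus f/f, ran between -0.28 and 0.33 with a median of -0.07, and the median over all probe sets was -0.0041. Of the 27, 20 were lower and 7 higher in d/d uteri, so 74.1% were lower against 51.3% of all probe sets, but probe sets of 1 gene share its transcript and are not independent.

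The intervals limited how large a difference these arrays allowed. The 95% interval lay inside a 2-fold change in either direction for 27 of 27 probe sets, and inside 1.5-fold for 20 of 27. Over all probe sets these shares were 97.3% and 87.3%. The interval, which is not adjusted for the number of probe sets, left out no change for 4 of the 27, those with an unadjusted p under 0.05: 2 of Nr3c1 and 1 each of Ncoa2 and Nrip1. Both genotypes lay below 2.69, the median log2 level of all probe sets, for 6 of the 27. There a difference may be compressed towards the background, so a narrow interval does not bound the true change. Without these 6, the interval lay inside 2-fold for 21 of 21 probe sets and inside 1.5-fold for 14 of 21.

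**Figure D1:**
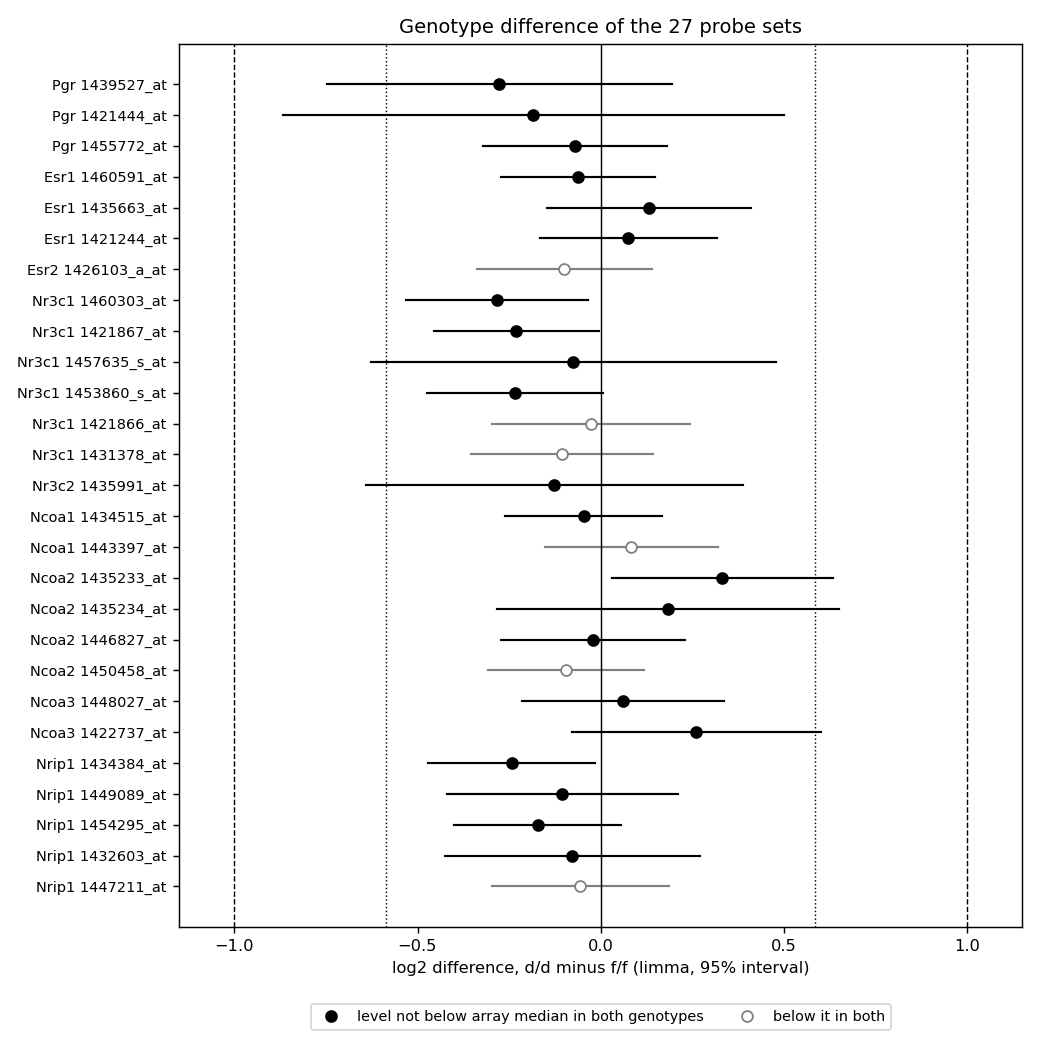
Log2 difference (d/d minus f/f, x axis) of each of the 27 probe sets, with its 95% limma interval as a line, dashed lines at a 2-fold and dotted lines at a 1.5-fold change. Open grey points lie below the median level of 2.69 in both genotypes, and no interval reaches a dashed line.

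Whole-array facts bear on what follows. Arid1a measured 6.98, 7.06 and 7.04 in d/d uteri and 7.54, 7.58 and 7.71 in f/f uteri (log2 difference -0.58 ± 0.09 SE; limma adjusted p = 0.0342), and over genes the adjusted p rose above 0.05 without any 1 of 5 of the 6 arrays, up to 0.111. Over all genes 1.14% were called and 12.2% had an unadjusted p under 0.05, and marker lists are read against these shares. Marker means of epithelium, stroma, endothelium and fat did not overlap between the genotypes. Those of smooth muscle, of leukocytes, and of ovary and oviduct overlapped. The mean log2 level of 11 epithelial markers was 7.61 to 7.74 in d/d and 7.13 to 7.29 in f/f uteri, with 2 called higher. For 16 stromal markers it was 8.66 to 8.88 in d/d and 8.94 to 9.12 in f/f uteri, with 1 called lower, and for 6 endothelial markers 6.39 to 6.82 in d/d and 7.14 to 7.21 in f/f uteri, with 0 called and 5 under an unadjusted p of 0.05. For 10 smooth muscle markers it was 7.88 to 8.40 in d/d and 8.19 to 8.42 in f/f uteri, and for 6 fat markers 3.91 to 4.80 in d/d and 5.06 to 5.71 in f/f uteri, with 0 called in either list and 1 and 5 genes under an unadjusted p of 0.05. Of 8 leukocyte and 8 ovary and oviduct markers 0 were called, with 2 of each under an unadjusted p of 0.05. The mean of 17 cell cycle genes was 4.86, 6.47 and 6.27 in d/d 1, 2 and 3 and 5.19, 5.36 and 6.11 in f/f 1, 2 and 3. Array d/d 1 stood apart from the other 2 of its genotype, and without it 971 probe sets were called in place of 217, but again 0 of the 27. In whole tissue, fewer cells of a type and less RNA per cell cannot be told apart, and the part of these shifts in the values below was not tested.

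Pgr, the progesterone receptor gene, varied widely between arrays of 1 genotype and did not pass the test between the genotypes. Its brightest probe set measured 8.83, 9.45 and 9.26 in d/d 1, 2 and 3 and 9.06, 9.61 and 9.70 in f/f 1, 2 and 3 on the log2 scale. The array numbered 1 was the lowest in each genotype, and the groups overlapped. The mean was 9.18 ± 0.32 in d/d and 9.46 ± 0.35 in f/f uteri (SD, n = 3 each), a log2 difference of -0.28 ± 0.20 (SE; limma adjusted p = 0.752). The 95% interval of the ratio of d/d to f/f was 0.596 to 1.14. The residual SD of this probe set was larger than that of 95.8% of all probe sets. A second probe set repeated the order within each genotype, with 4.37, 5.45 and 5.19 in d/d 1, 2 and 3 and 4.69, 5.38 and 5.50 in f/f 1, 2 and 3, and a residual SD above that of 98.9% of probe sets. The third did not: it ran from 4.66 to 4.99 in d/d and from 4.79 to 4.98 in f/f uteri, with d/d 1 the highest. The log2 differences of these probe sets were -0.18 and -0.07. The 2 arrays lowest in Pgr by its brightest probe set, d/d 1 and f/f 1, were also the 2 lowest in the cell cycle mean. The log2 difference of the brightest probe set depended on single arrays. With 1 array left out it ranged between -0.48 when that array was f/f 1 (limma adjusted p = 0.486) and -0.10 when it was d/d 1 (limma adjusted p = 0.891). With both arrays numbered 1 left out it was -0.30 (limma adjusted p = 0.362).

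**Figure D2:**
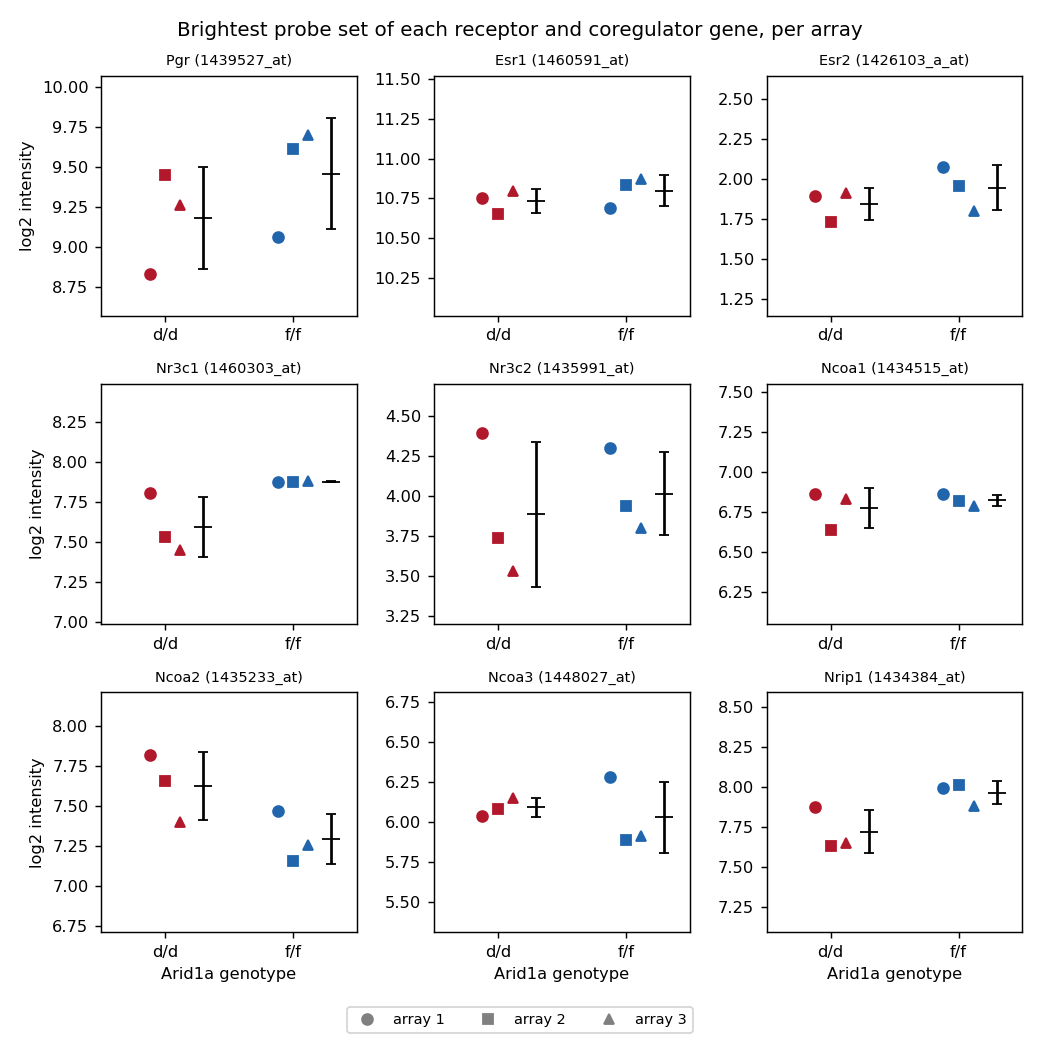
Log2 intensity (y axis, each panel spanning the same range) of the brightest probe set of each of the 9 genes on the 3 d/d arrays (red, left) and the 3 f/f arrays (blue, right), with marker shape giving the array number and the black bar the mean ± SD. Pgr and Nr3c2 spread most within a genotype. The groups do not overlap for Nr3c1 and Nrip1, or 22.2% of the 9 genes, against 16.5% of all genes.

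The bases before the start of Pgr are shown because estrogen induces this gene, and those of Nrip1 because that gene too is estrogen-induced and has 2 annotated starts. Sequences are RefSeq's on GRCm38.p6, 250 bases upstream of a start, and 6 of the 9 genes matched, with 8 starts. Capitals mark GC boxes (GGGCGG, or CCGCCC on the other strand) and CCAAT boxes (CCAAT, or ATTGG on the other strand).
Pgr, chr9:8899583-8899832, plus strand: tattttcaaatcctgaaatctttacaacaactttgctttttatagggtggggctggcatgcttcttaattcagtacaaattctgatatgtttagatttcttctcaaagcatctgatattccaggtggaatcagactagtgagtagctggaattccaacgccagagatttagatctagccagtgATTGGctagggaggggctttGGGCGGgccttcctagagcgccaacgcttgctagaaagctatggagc
Nrip1, chr16:76373050-76373299, minus strand: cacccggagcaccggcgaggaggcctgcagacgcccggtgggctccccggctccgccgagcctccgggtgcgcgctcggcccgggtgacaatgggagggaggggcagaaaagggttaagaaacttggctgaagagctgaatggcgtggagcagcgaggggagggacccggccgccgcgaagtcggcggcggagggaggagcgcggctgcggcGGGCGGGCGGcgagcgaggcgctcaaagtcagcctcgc
Nrip1, chr16:76373828-76374077, minus strand: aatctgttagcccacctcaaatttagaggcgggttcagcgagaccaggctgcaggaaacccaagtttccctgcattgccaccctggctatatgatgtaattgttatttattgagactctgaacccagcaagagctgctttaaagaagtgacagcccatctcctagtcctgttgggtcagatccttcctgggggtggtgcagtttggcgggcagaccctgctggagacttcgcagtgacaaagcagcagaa
The Pgr window held 1 GC box and 1 CCAAT box at 43.6% G and C. The first Nrip1 window held 2 overlapping GC boxes at 73.6% G and C, and the second held neither motif at 51.2%. Half-sites for the estrogen receptor (AGGTCA or TGACCT) were found in 0 of the 8 windows, against 14.0% of all 32851 windows of this length. Half-sites for the glucocorticoid and progesterone receptors (AGAACA or TGTTCT) were likewise in 0 of 8, against 16.1%. A GC box stood in 4 of 8, against 32.7%, and a CCAAT box in 4 of 8, against 33.8%. The absence of a match says only that these letters are not in these windows.

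Esr1, the gene of the main uterine estrogen receptor, was among the steadiest of the set. Its brightest probe set measured 10.76, 10.65 and 10.80 in d/d and 10.69, 10.83 and 10.87 in f/f uteri. The groups overlapped, with no array far from the rest. The log2 difference was -0.06 ± 0.09 (SE; limma adjusted p = 0.894), and the 95% interval put the d/d level between 0.827 and 1.11 of the f/f level. The other 2 probe sets leaned the other way, at 0.13 and 0.08, without passing. Esr2 encodes the second estrogen receptor. Its only probe set measured 1.90, 1.73 and 1.91 in d/d and 2.08, 1.96 and 1.80 in f/f uteri. All 6 values lay below 2.69, so these arrays carry little information on Esr2 in either genotype.

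Nr3c1, the glucocorticoid receptor gene, leaned lower in d/d uteri by its bright probe sets without passing the test. The brightest measured 7.81, 7.53 and 7.45 in d/d 1, 2 and 3 and 7.88 on each f/f array. All d/d values lay below all f/f values, with d/d 1 close to them. The log2 difference was -0.28 ± 0.11 (SE), with an unadjusted limma p of 0.0305 and an adjusted p of 0.430. The 95% interval put the d/d level between 0.692 and 0.977 of the f/f level. The next brightest measured 7.12, 6.92 and 6.94 in d/d and 7.12, 7.32 and 7.22 in f/f uteri, for a difference of -0.23 ± 0.10 (SE; limma adjusted p = 0.488). Here d/d 1 and f/f 1 were equal to 2 decimals. A dimmer probe set measured 3.36, 3.39 and 3.67 in d/d and 3.69, 3.76 and 3.67 in f/f uteri, with a difference of -0.23. The third brightest went its own way, with 7.04, 6.50 and 5.95 in d/d and 6.72, 6.40 and 6.59 in f/f uteri. Its d/d values covered 1.09 on the log2 scale, and its difference was -0.07. The remaining 2 lay below 2.69 in both genotypes, at -0.03 and -0.11. All 6 differences were thus negative, between -0.03 and -0.28. Without d/d 1 the brightest probe set stood at -0.39, with a limma adjusted p of 0.0961, the lowest reached by a probe set of the 27 in any setting tried. The d/d arrays were also the lower ones in the stromal, endothelial and fat marker means given above.

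Nr3c2 encodes the mineralocorticoid receptor, which binds aldosterone and glucocorticoids. Its 1 probe set measured 4.40, 3.74 and 3.53 in d/d 1, 2 and 3 and 4.30, 3.94 and 3.80 in f/f 1, 2 and 3. Arrays numbered 1 were the highest of each genotype, the reverse of Pgr, and the groups overlapped. The log2 difference was -0.13 ± 0.22 (SE; limma adjusted p = 0.915), with a 95% interval of the d/d to f/f ratio from 0.641 to 1.31. Without d/d 1 it was -0.38 (limma adjusted p = 0.320).

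Among the coactivators, Ncoa2 had the largest difference of the whole set. Its brightest probe set measured 7.82, 7.66 and 7.40 in d/d and 7.47, 7.16 and 7.26 in f/f uteri. The groups overlapped, because d/d 3 lay below f/f 1. The log2 difference was 0.33 ± 0.13 (SE), with an unadjusted limma p of 0.0352 and an adjusted p of 0.452, and a 95% interval of the ratio from 1.02 to 1.55. The other 3 Ncoa2 probe sets were dimmer and stood at 0.18, -0.02 and -0.09.

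Ncoa1, whose product is also called SRC-1, measured 6.86, 6.63 and 6.83 in d/d and 6.86, 6.82 and 6.79 in f/f uteri. Apart from d/d 2, the arrays lay within a narrow band, and the log2 difference was -0.05 with a 95% interval from -0.26 to 0.17. Its dim second probe set stood at 0.08. Ncoa3, whose product is called SRC-3, measured 6.04, 6.08 and 6.15 in d/d and 6.28, 5.89 and 5.92 in f/f uteri. Array f/f 1 was the highest of the 6, above all d/d arrays, and the difference was 0.06 with an interval from -0.21 to 0.34. A dimmer Ncoa3 probe set measured 3.22, 3.79 and 3.64 in d/d and 3.23, 3.42 and 3.22 in f/f uteri, a difference of 0.26 (limma adjusted p = 0.646).

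Nrip1 leaned lower in d/d uteri, again without passing. Its brightest probe set measured 7.87, 7.63 and 7.65 in d/d and 7.99, 8.01 and 7.88 in f/f uteri. The groups did not overlap, though d/d 1 and f/f 3 almost met. The log2 difference was -0.24 ± 0.10 (SE), with an unadjusted limma p of 0.0386 and an adjusted p of 0.465, and a 95% interval of the ratio from 0.722 to 0.989. The second brightest measured 7.06, 6.65 and 6.70 in d/d and 7.06, 6.94 and 6.73 in f/f uteri, a difference of -0.10 with groups that overlapped. The other 3 stood at -0.17, -0.08 and -0.06, so all 5 Nrip1 probe sets were lower in d/d uteri and 0 passed. Without d/d 1 the brightest stood at -0.32 (limma adjusted p = 0.182).

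**Figure D3:**
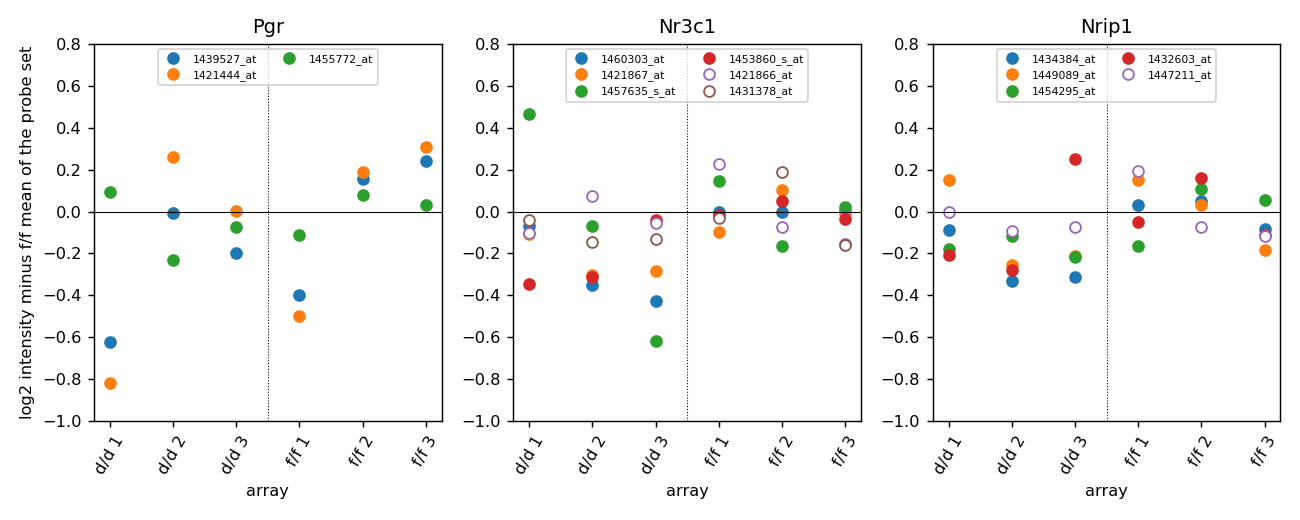
Log2 intensity of every probe set of Pgr, Nr3c1 and Nrip1 on each array, minus the f/f mean of that probe set (y axis), with d/d arrays left of the dotted line and open circles for probe sets below 2.69 in both genotypes. The 2 most variable Pgr probe sets are lowest on d/d 1 and f/f 1, while the 2 brightest Nr3c1 probe sets are lowest on d/d 2 and d/d 3.

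The genes around the receptors were read from 10 lists of partners, responsive genes and steroid enzymes, chosen with earlier results of these arrays known. Of their 154 distinct genes 120 were measured, each by its brightest probe set, and 1 was higher and 8 lower in d/d uteri over all genes (limma adjusted p under 0.05), or 7.50% against 1.14% of all 16813 genes. An unadjusted p under 0.05 held for 12.2% of all genes. As several of these genes were known to be called when the lists were written, this share is a description only. Some genes stand in more than 1 list, so the counts of the lists are not separate. The median log2 difference of the 120 was -0.06, and over all genes -0.01.

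The chaperones, coregulators, related receptors and steroid enzymes had 0 called genes in the fit as described, and 4 of those named here passed in some other setting, as given with each. Of 15 listed chaperones and immunophilins, which hold unliganded receptors, 8 were measured. Of these 8, 0 passed limma and 0 had an unadjusted p under 0.05 (median -0.0098). Hsp90aa1, a cytosolic chaperone, stood at 0.08 and Ahsa1, its activator, at -0.11. The measured immunophilins lay near 2.69, with genotype means between 2.60 and 2.73, so these arrays carry little information on them. Of 23 further coactivators 0 passed and 3 had an unadjusted p under 0.05 (median -0.02). Ppargc1a, a coactivator of energy metabolism, measured 5.49, 6.49 and 6.02 in d/d and 5.01, 4.96 and 5.20 in f/f uteri, a log2 difference of 0.94 ± 0.23 (SE; limma adjusted p = 0.121). It passed with array weights (0.0434), without d/d 1 (0.00568) and without both arrays numbered 1 (0.0197, all limma adjusted p). Med14, a Mediator subunit, stood at 0.43 ± 0.09 (SE; limma adjusted p = 0.0865), and passed with array weights (0.0424) and without d/d 1 (0.0373). For both the groups did not overlap, which held for 16.5% of all genes. Of 14 corepressors 0 passed and 2 had an unadjusted p under 0.05 (median 0.0015), with Ctbp2 at 0.32 and Tle3 at 0.28. Of 9 membrane steroid receptors and orphan estrogen-related receptors, which bind no known steroid hormone, 0 passed and 2 had an unadjusted p under 0.05 (median 0.03): the membrane progestin receptor gene Paqr8 at 0.63 and Gper1, which encodes a membrane receptor for estrogen, at 0.52. Paqr8 passed without f/f 1 (0.81; limma adjusted p = 0.0385) and without both arrays numbered 1 (0.85; limma adjusted p = 0.0121). Gper1 was read from a probe set with the suffix _x_at, which can hybridise to other transcripts, and stood at 0.81 without such probe sets (limma adjusted p = 0.0629), while without d/d 1 it passed at 0.68 (limma adjusted p = 0.044). Of 10 steroid-metabolising enzymes 0 passed and 1 had an unadjusted p under 0.05 (median -0.06), Hsd17b7 at 0.44, while Hsd17b1 stood at -0.15. Hsd17b7 too rested on an _x_at probe set, and without such probe sets it stood at 0.034 (limma adjusted p = 0.939). Both genotypes lay below 2.69 for 5 of these 10.

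Called genes lay among the responsive genes and the partner factors. Of 13 estrogen-responsive genes, among them Pgr, 1 was higher and 1 lower (median -0.0011). Greb1, an estrogen-induced gene, measured 2.75, 3.05 and 2.81 in d/d and 4.79, 4.58 and 4.06 in f/f uteri, and fell by 1.60 on the log2 scale (limma adjusted p = 0.0118). Its d/d values were not far above 2.69, and the difference may be compressed. Muc1, a surface mucin, rose by 1.03 (limma adjusted p = 0.0178), to 5.40, 5.85 and 5.87 in d/d against 4.67, 4.69 and 4.68 in f/f uteri. Greb1 and Muc1 thus went opposite ways. Muc1 is also 1 of the 11 epithelial markers, whose mean was higher on every d/d array, and the part of that shift in its value was not tested.

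The 15 progesterone-responsive genes were chosen with earlier results known and can vary together, so their counts are a description only. Of the 15, 0 were higher and 4 lower (median -0.24), where 0.63% of all genes were called higher and 0.512% lower. An unadjusted limma p under 0.05 held for 6. Lrp2, the endocytic receptor megalin, had the largest difference of these, with 3.39, 3.48 and 2.51 in d/d and 5.47, 5.68 and 5.18 in f/f uteri (log2 difference -2.32 ± 0.26 SE; limma adjusted p = 0.0111). Ihh, a hedgehog ligand made by uterine epithelium, fell by 1.49, Gli1, a transcription factor of that pathway, fell by 0.96, and its receptor gene Ptch1 fell by 0.95 (limma adjusted p of 0.00918, 0.00975 and 0.0390). Ihh measured 3.07, 2.50 and 2.60 in d/d and 4.17, 4.15 and 4.30 in f/f uteri, so 2 of its d/d values were under 2.69, near the background, which may compress the difference. The lowest Lrp2 value, on d/d 3, lay below it too. The mean of the Ptch1 probe sets gave -0.31 (limma adjusted p = 0.196). Cyp26a1, which degrades retinoic acid and is named here after its values were seen, lay the other way, with 6.09, 5.26 and 5.20 in d/d and 4.79, 3.78 and 3.89 in f/f uteri (log2 difference 1.36 ± 0.32 SE; limma adjusted p = 0.112). Among 16 partner factors, 0 were higher and 1 lower (median -0.14): Foxa2, a transcription factor of the glands, fell by 1.41 (limma adjusted p = 0.0116). Foxa2 measured 3.31, 2.93 and 3.04 in d/d and 4.21, 4.53 and 4.76 in f/f uteri, so its d/d values too were not far above 2.69.

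Of 16 glucocorticoid-responsive genes 0 were higher and 2 lower (median -0.44), and 14 of the 16 differences were negative, against 53.4% of all genes. The list was chosen with earlier results known and its genes can vary together, so this count is a description only. Fam107a, a stress-responsive actin regulator, measured 4.31, 1.82 and 2.27 in d/d 1, 2 and 3 and 6.93, 7.00 and 6.45 in f/f 1, 2 and 3 (log2 difference -3.99 ± 0.57 SE; limma adjusted p = 0.0242). Its values on d/d 2 and d/d 3 were likewise under 2.69. Pck1, an enzyme of gluconeogenesis that fat cells also express, measured 4.77, 3.71 and 3.58 in d/d and 5.90, 5.63 and 6.02 in f/f uteri (log2 difference -1.83 ± 0.30 SE; limma adjusted p = 0.0389). The mean level of the list was 6.48, 5.27 and 5.41 in d/d 1, 2 and 3 and 6.75, 6.47 and 6.22 in f/f 1, 2 and 3. The array numbered 1 was the highest of each genotype in this mean. Array d/d 1 lay among the f/f arrays in it, and close to them in the brightest Nr3c1 probe set. Whether the list and Nr3c1 are linked was not tested. Of 4 mineralocorticoid-responsive genes, 1 of them also in the glucocorticoid list, 0 passed and 1 had an unadjusted limma p under 0.05. Their median was -0.30, with 4 of 4 differences negative. Atp1b1, a sodium pump subunit, stood at -0.58 and Nedd4l, a ubiquitin ligase, at -0.11. The fat marker mean was lower on every d/d array than on every f/f array, and its part in the Pck1 value was not tested.

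Each of the calls in the responsive and partner lists was lost in some fit with 1 array left out. The limma adjusted p reached 0.0834 for Foxa2, 0.0837 for Greb1, 0.0967 for Muc1, 0.0634 for Ihh, 0.0635 for Gli1, 0.173 for Ptch1, 0.0813 for Lrp2, 0.132 for Fam107a and 0.166 for Pck1. With an intensity trend and robust variance it was 0.0700 for Fam107a.

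**Figure D4:**
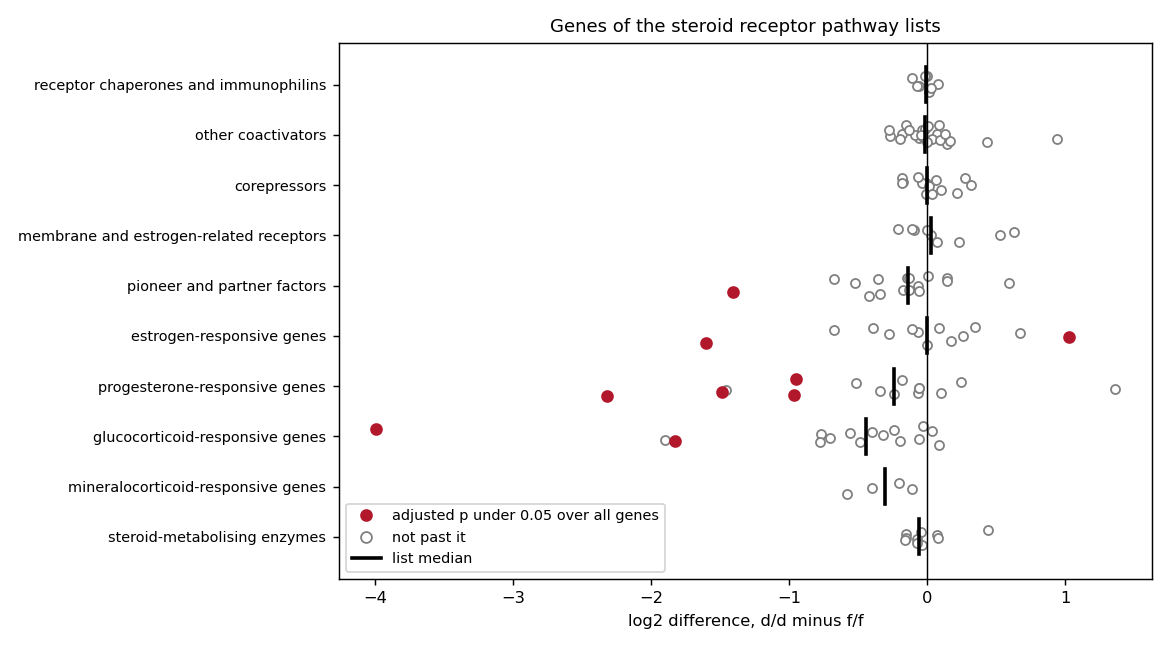
Log2 difference (d/d minus f/f, x axis) of each measured gene of the 10 lists (rows), with genes past an adjusted p of 0.05 over all genes in red, others open, and the list median as a black bar. The list medians of the partner machinery and the steroid enzymes lie near 0, with single genes further out, up to 0.94 for Ppargc1a. The called genes lie in the partner factor, estrogen, progesterone and glucocorticoid rows.

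The genes whose log2 values went most closely with Pgr over the 6 arrays, among 10563 genes above the median level, were Elovl1, a fatty acid elongase gene, Armc6 and Baz1b, a chromatin remodeller subunit gene, with Pearson correlations of 0.988, 0.988 and 0.987. For Esr1 they were Scrn2, Lin37 and Tmem45a, at 0.995, 0.985 and 0.972. These are the highest values of a search over many genes with 6 arrays, in which 36 genes exceeded 0.95 with Pgr and 14 with Esr1. The correlations are a description of these arrays.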

How the data were processed

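Transcripts were measured on Affymetrix arrays in 3 Arid1a d/d and 3 Arid1a f/f uterus samples. The authors deposited a table of linear intensity values, 1 for each probe set on each array, for which RMA is named in the submitters' processing notes, with settings and version not given in the sources used here. RMA shrinks differences near the background. Log2 was taken of each intensity with no added constant. Of 41420 probe sets, 31562 had 1 gene symbol in the annotation, 830 had several and 9028 had none. A gene was read by its brightest probe set, giving 16813 genes. Under R 4.3.3, limma 3.58.1 tested d/d against f/f (lmFit, eBayes, 2-sided, no covariate), with Benjamini-Hochberg adjustment over all probe sets or all genes and a threshold of 0.05. The steps were tested on simulated data.

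The number of arrays limits the precision. Separate animals are not stated for the samples. The p-values therefore set the genotype difference only against the scatter of these samples, moderated over all probe sets or genes. That scatter may be technical. Correlations between arrays lay between 0.987 and 0.995. The members and lists were chosen with earlier results of these data known. Named were the 9 genes, Arid1a, up to 4 called genes per pathway list (or the 2 of smallest p), and the 3 genes most like Pgr and Esr1; Cyp26a1 was named outside this rule. Same-numbered arrays were not taken as pairs, because the numbers are not stated to pair the samples. The correlations of their deviations were 0.461, 0.0228 and 0.178 for numbers 1, 2 and 3. Alternatives were a replicate block, trend with robust variance, array weights, repeated quantile normalization, median centring, log2(value + 1), a filter at the 40th percentile, no _x_at probe sets, arrays left out, a threshold of 0.10 and the mean of a gene's probe sets.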

Additional observations from a re-analysis of the deposited data

How the results depend on the processing

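In each of the 16 settings tried over probe sets, 0 of the 27 receptor and coregulator probe sets passed. Of 426 differences 407 kept their direction and 19 turned, each with neither side past the threshold. The trend, block, percentile filter, _x_at and 0.10 threshold settings leave each difference unchanged, so direction was kept there by construction. Adding a replicate block called 574 probe sets, 295 of them higher in d/d, 279 lower, and 457 genes, 217 of them higher, 240 lower. Under that replicate block the lowest adjusted p among the 27 was 0.227 (Ncoa2), and of the named genes it ended no call. Weighting the arrays called 329 probe sets, of which 147 were lower, and 381 genes, of which 194 were higher, 187 lower. Without either array numbered 1, 657 probe sets were called, 298 of them higher, 359 lower, and 540 genes, 221 of them higher, 319 lower. This also turned a dim probe set of Nr3c1 (0.12) and the dimmest of Nrip1 (0.014). The looser threshold of 0.10 called 462 probe sets, 256 of them higher, 206 lower, and 403 genes, 198 of them higher, 205 lower, by its construction. The mean of a gene's probe sets turned Esr1 (0.048) and Ncoa1 (0.018). For the block, the weights and the left-out arrays the cause was not tested.

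With a single array left out, called probe sets numbered 37 to 971, higher ones 21 to 410, lower ones 16 to 561. Called genes numbered 26 to 821, higher ones 16 to 328, lower ones 10 to 493, with the most in each case without d/d 1. The log2 differences that turned covered -0.43 to 0.13 and -0.15 to 0.011 (the Pgr probe sets other than the brightest), -0.015 to 0.15 (the dimmest of Esr1), -0.35 to 0.20 and -0.10 to 0.087 (the variable and a dim one of Nr3c1), -0.38 to 0.051 (Nr3c2), -0.088 to 0.024 and -0.0081 to 0.15 (both of Ncoa1), -0.047 to 0.32 and -0.097 to 0.076 (those of Ncoa2 of intermediate level), -0.0082 to 0.19 (the brightest of Ncoa3), and -0.24 to 0.021 and -0.11 to 0.040 (the dimmer pair of Nrip1). The 40th percentile filter gave no value for the 6 probe sets below 2.69 in both genotypes.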
